A study of Bos taurus with 46 samples.

Results

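The comparison described here is that of maternal leukocyte RNA on D55 of gestation between heifers bred by artificial insemination (AI) and heifers carrying in vitro produced embryos whose fetuses were of normal weight (IVP-Normal). It used 14 of the 46 libraries of the series, 8 AI and 6 IVP-Normal, chosen by the labels for day and group, and each library came from a different heifer. The recipients were Angus crossbred heifers of about 18 to 20 months of age with synchronized estrus. AI dams were inseminated, whereas IVP dams received 2 blastocysts each, produced from *Bos taurus taurus* oocytes and semen of 1 *Bos taurus indicus* bull and cultured with serum. The study called an IVP pregnancy normal when the fetus collected on D105 weighed less than the 97 percentile of AI weight, so the group was fixed 50 days after the blood was taken, and heavier fetuses formed the IVP-LOS group (large offspring syndrome). GEO's labels name the IVP-Normal group ARTnormal. Heifers 628 and 688 of the IVP-Normal group carried 2 fetuses, and every AI dam carried 1. The IVP oocytes came from slaughterhouse ovaries, whereas AI dams carried fetuses from their own oocytes. Embryo transfer, the source of the oocytes, embryo culture and the number of fetuses therefore differ together between the groups. They cannot be told apart beyond leaving heifers 628 and 688 out.

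The RNA was that of the dam's own circulating cells, taken from the buffy coat after red cell lysis, and not that of the fetus or the placenta. Leukocytes of the blood are a mixture. B cells carry the antigen receptor and the surface proteins that tune it, and after stimulation some become plasmablasts and plasma cells, which enlarge the endoplasmic reticulum to secrete antibody. T cells and natural killer cells recognise and kill altered cells, monocytes and neutrophils take up particles, and platelets shed from megakaryocytes remain in the buffy coat. In ruminants, interferon tau from the early conceptus raises interferon-stimulated genes in maternal leukocytes around implantation, and the later weeks are less well described. In bulk RNA a lower signal from fewer cells of a type and one from less RNA per cell cannot be told apart.

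Library depth was similar in the groups. Reads on genes ranged from 21791213 to 23841695 in AI and from 21440044 to 24333337 in IVP-Normal (exact permutation test, two-sided, p = 0.828), and reads on no gene made up 21.2% to 25.3% and 19.6% to 26.2% of all reads (exact permutation p = 0.817). All 14 libraries belonged to the library set named New in the labels. The defining markers of leukocytes were present: *MS4A1* (CD20, B cells) had a median of 1046 CPM in AI (counts scaled to library size with TMM factors), *CD3E* (T cells) 490.8, *CSF1R* (monocytes) 208.3 and *CXCR2* (neutrophils) 13.1. One IVP-Normal heifer, 519, stood apart from the others. It lay at 69.2 on the first principal component (19.6% of the variance), where the other 13 heifers lay between -33.0 and 25.6, and its mean distance to the other heifers was 70.4 against 52.4 to 60.2 for the rest. The main gene lists are therefore also given without it. Dixon's test for a single far sample, given under the results flagged for a closer look, did not mark heifer 519 on that component.

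No gene passed a false discovery rate (FDR) of 0.05 in edgeR's quasi-likelihood test, that is 0% of the 15350 genes tested, and the smallest FDR was 0.493. At an unadjusted p under 0.05, which is called the unadjusted threshold from here on, 1522 genes (9.92%) passed. Of these, 765 (4.98% of those tested) were higher and 757 (4.93%) lower in IVP-Normal, and the median log2 fold change (IVP-Normal minus AI) over all genes was 0.00. The other tests made a few calls: 3 genes with edgeR's likelihood ratio test (0.0195% of 15350) and 13 with DESeq2's (0.0545% of 23857 with an adjusted p), and the 3 were among the 13. The study used likelihood ratio tests of both packages at a threshold of 0.05, with further normalization steps for edgeR, and kept genes called by both. By that rule, without those steps, 3 genes were called here. The count at the unadjusted threshold depended on single heifers. It was 851 without heifer 519, 999 without AI heifer 647 and 2091 without IVP-Normal heifer 560, as the plot of counts with each heifer left out shows. All gene-level differences below are therefore differences in level at an unadjusted threshold, and none of them passed the correction for the number of genes in the quasi-likelihood test.

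**Figure D1:**
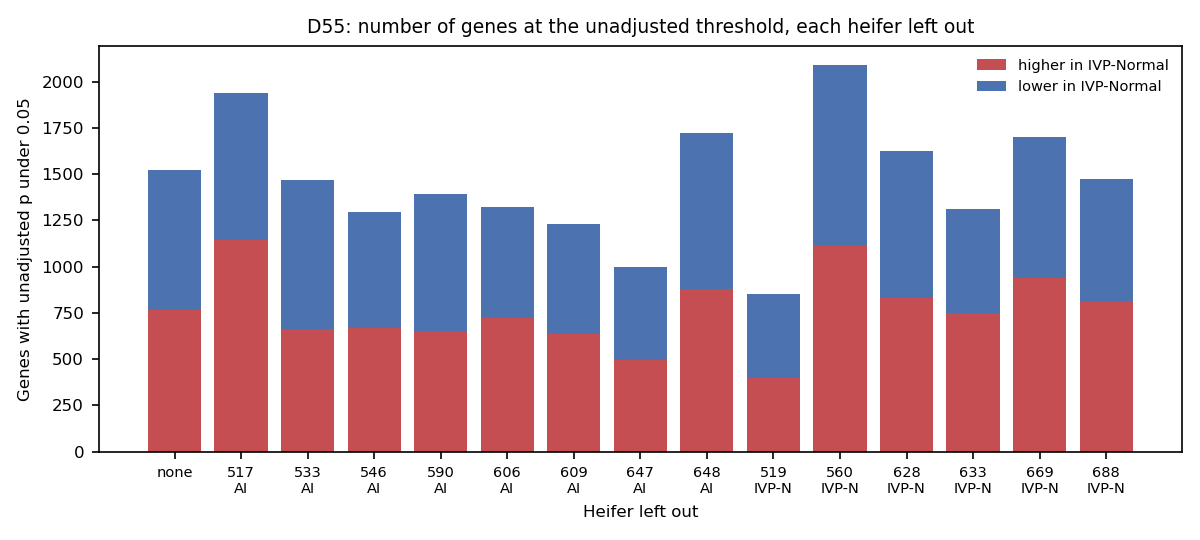
Number of genes with an unadjusted p under 0.05 on D55 (y axis) with all heifers ("none") and with each heifer left out in turn (x axis, AI heifers first). Red and blue parts of each bar count genes higher and lower in IVP-Normal. The bar without heifer 519 is the lowest at 851 and the bar without heifer 560 the highest at 2091.

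The gene with the smallest p was *COL27A1*, which encodes a fibrillar collagen chain. Its level in AI was lowest at 0.9995, with a median of 2.17 and a highest value of 3.73 CPM, and in IVP-Normal it ran from 0.334 over 0.583 to 0.831 CPM. All 6 IVP-Normal heifers were below all 8 AI heifers, and the difference was -1.89 ± 0.36 on the log2 scale (standard error, as for all fold changes here). The FDR was 0.493 in the quasi-likelihood test, 0.00573 in edgeR's likelihood ratio test and 0.00878 in DESeq2. As each heifer was left out the difference stayed between -2.01 and -1.73. The gene was sparse, with 403 reads over the 8 AI libraries and 80 over the 6 IVP-Normal libraries.

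Non-overlapping groups were rare. In 5 genes (0.0326% of those tested) every IVP-Normal heifer was above every AI heifer, and in 13 (0.0847%) every one was below. *STAP1*, an adaptor protein expressed in B cells, was the leading gene among those that were higher: 12.02, 18.3 and 21.9 CPM were the lowest, median and highest values in AI, and 22.8, 26.4 and 36.6 CPM in IVP-Normal. Its difference was 0.63 ± 0.13 (DESeq2 adjusted p = 0.0249). The others were *LOC107132678*, a long non-coding RNA that was under 1 CPM in AI (difference 1.304 ± 0.29), and *DDX27*, *KRI1* and *WDR53* with small differences of 0.17, 0.20 and 0.21. *DDX27* and *KRI1* take part in making the large and small ribosomal subunits. Among the 13 that were lower, *LOC112442378* went from a median of 61.1 CPM in AI (47.2 to 94.1) to 32.8 CPM in IVP-Normal (23.6 to 47.0), a difference of -0.92 ± 0.17, and it was called by both likelihood ratio tests. The ranges touched, with 47.2 against 47.0 CPM at their edges. *LOC515697* had 59.1 to 76.5 CPM in AI and 44.1 to 54.4 CPM in IVP-Normal (-0.38 ± 0.07). *STARD13*, an inhibitor of small GTPases, differed by -0.94 ± 0.22, *ANKRD9* by -0.64 ± 0.15 and *CRYL1*, an enzyme of sugar metabolism, by -0.60 ± 0.16.

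**Figure D2:**
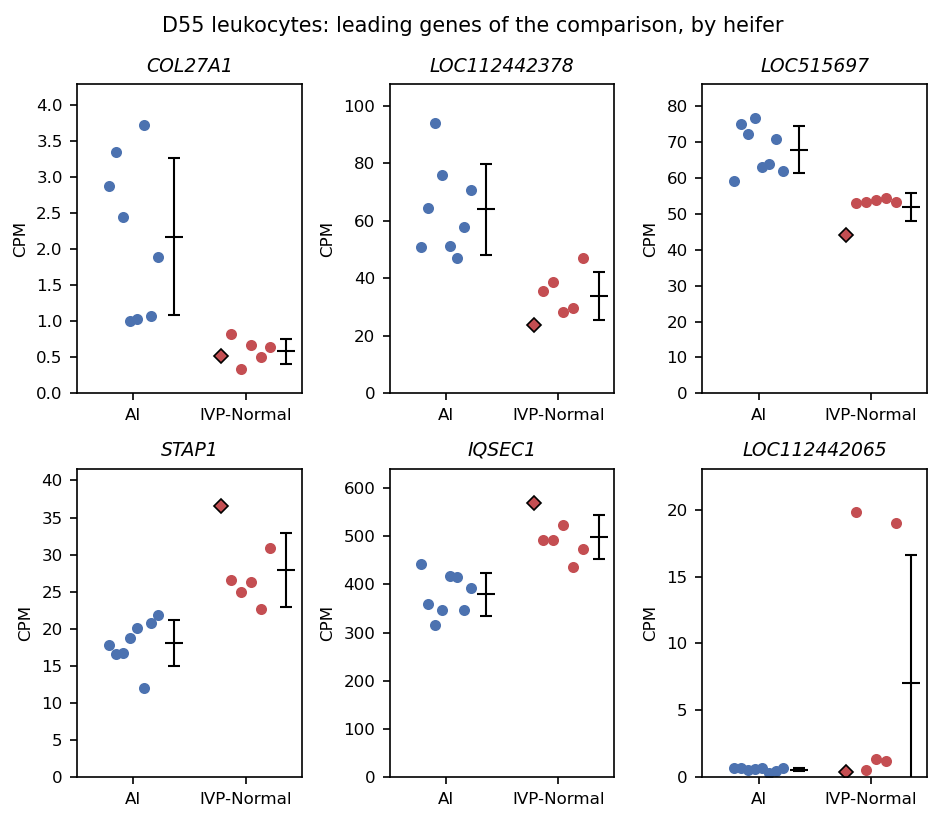
Level (CPM, y axis from 0) of 6 of the genes with the smallest p in each AI and IVP-Normal heifer on D55. Each point is 1 heifer, heifer 519 is the diamond, and the bar beside each group is the mean with its SD. The IVP-Normal points of *COL27A1*, *LOC112442378* and *LOC515697* lie below all AI points, those of *STAP1* lie above, those of *IQSEC1* overlap AI at 1 heifer, and *LOC112442065* is high in only 2 IVP-Normal heifers.

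Among the other genes of small p, *IQSEC1*, an exchange factor for the GTPase ARF6, had 315 to 442 CPM in AI and 437 to 569 CPM in IVP-Normal (0.39 ± 0.08). *GPR183*, the oxysterol receptor that positions B cells in lymphoid tissue, had 183 to 242 CPM against 225 to 312 CPM (0.33 ± 0.08), and *SH3BP5*, which binds the kinase BTK, had 32.8 to 42.9 CPM against 41.9 to 49.4 CPM (0.31 ± 0.07). Each of these 3 was higher in IVP-Normal with only a short overlap. *ELOVL5*, a fatty acid elongase, differed by 0.45 ± 0.10 and *SLFN11*, a gene of the replication stress response, by 0.43 ± 0.10. On the lower side, *HPCAL1*, a calcium sensor, differed by -0.46 ± 0.10 and *NETO2*, a glutamate receptor partner, by -1.16 ± 0.29.

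One call of the likelihood ratio tests rested on 2 animals. *LOC112442065*, which RefSeq classes as a variable segment of an antigen receptor, was at 19.9 CPM in heifer 669 and 18.96 CPM in heifer 633, and between 0.433 and 1.39 CPM in the other 4 IVP-Normal heifers, where AI ranged from 0.304 to 0.730 CPM. The group difference of 3.57 ± 0.80 is thus that of 2 dams. Reads of such segments can fall on near-identical copies, so the level of a single segment is uncertain.

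Of the 23 B cell markers, all tested, 13 were higher at the unadjusted threshold and 0 lower, where 4.98% of all genes were higher. The median of their log2 fold changes was 0.38, and 20 of the 23 values were above 0. *CD22*, which restrains the B cell receptor, had 669, 909.5 and 1092 CPM as its lowest, median and highest values in AI and 997, 1200 and 1649 CPM in IVP-Normal, a difference of 0.47 ± 0.13. Only heifer 560 among the IVP-Normal dams was within the AI range, since 5 of 6 lay above it. *MS4A1* had 882 to 1484 CPM in AI and 1271 to 1842 CPM in IVP-Normal (0.42 ± 0.13), with all 6 IVP-Normal heifers above the AI median of 1046 but 2 above its maximum. *PAX5*, the factor that commits and keeps cells in the B lineage, differed by 0.50 ± 0.15 and *BCL11A* by 0.49 ± 0.16. *CR2* (complement receptor CD21) differed by 0.53 ± 0.17, *BANK1* by 0.46 ± 0.15 and *EBF1* by 0.42 ± 0.16. The receptor chains *CD79A* and *CD79B* differed by 0.34 ± 0.14 and 0.45 ± 0.19.

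The B cell markers were not all higher to the same extent. *CD40* was 0.12 ± 0.14, not past the threshold, while *BLK* (0.00 ± 0.18) and *FCER2* (-0.12 ± 0.24), the low-affinity IgE receptor, gave no difference in level beyond their errors. Heifer 519 had the highest summed level of the list at 10320 CPM, against 4885 to 7826 CPM in AI and 7096 CPM at the lowest IVP-Normal heifer. Without it 7 of the 23 markers were higher and 0 lower (background 2.57% higher and 2.93% lower over all genes), and the median was 0.29. Without heifers 628 and 688 the counts were 10 and 0, with a background of 5.39% higher and 4.56% lower.

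**Figure D3:**
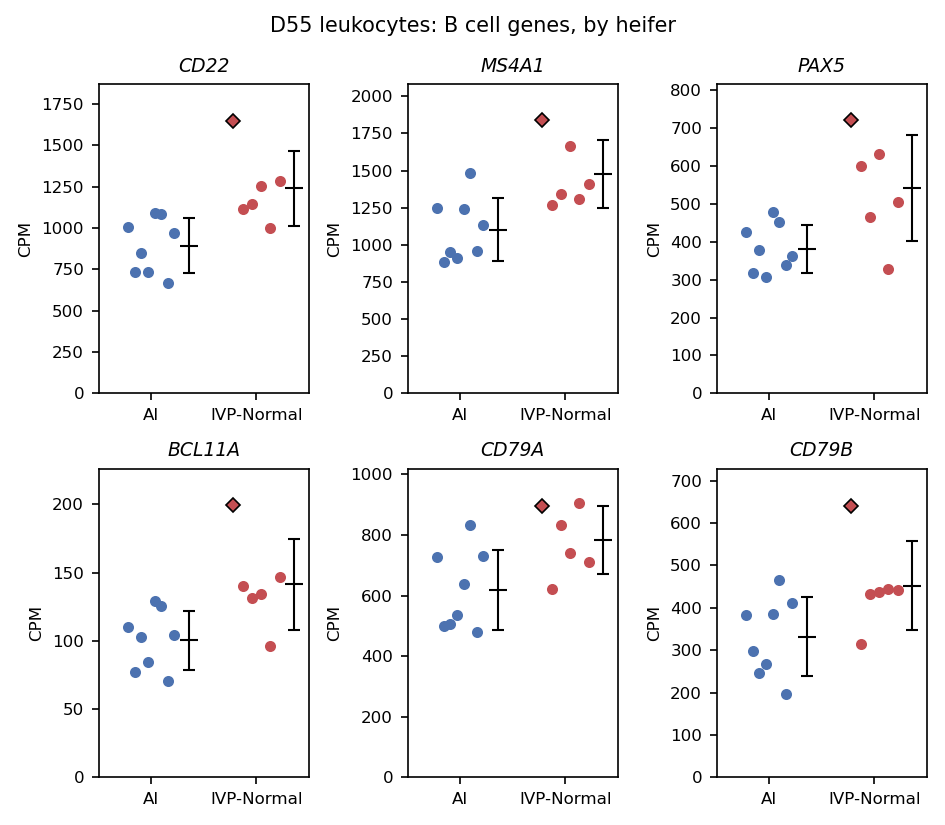
Level (CPM, y axis from 0) of 6 B cell genes in each heifer on D55, with heifer 519 as the diamond and the mean with its SD beside each group. For *CD22*, *MS4A1* and *CD79A* all 6 IVP-Normal heifers lie above the AI median, and for *PAX5*, *BCL11A* and *CD79B* 5 do.

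A list of 30 genes, named B cell receptor signalling, was drawn up after the leading genes had been seen. Beside genes acting downstream of the receptor it holds surface proteins such as *CD180* and *CD38*. The list also holds some of the leading genes and shares *BLNK* with the markers, so its count is a description only. It had 15 members higher and 0 lower, with a median of 0.20, where 4.98% of all genes were higher. Without heifer 519 its counts were 9 and 0, where 2.57% of all genes were higher. *BTK*, the kinase whose loss stops B cell development, had 113.6 to 169 CPM in AI and 149 to 256 CPM in IVP-Normal (0.38 ± 0.11), with 5 of 6 heifers above the AI range. *SYK*, the first kinase of the cascade, differed by 0.40 ± 0.12, *VAV2*, an exchange factor for Rac, by 0.45 ± 0.13, and *CD180*, a Toll-like receptor relative of B cells, by 0.43 ± 0.13. *CD38*, an NAD-consuming surface enzyme, had the largest of these differences at 0.83 ± 0.25, from 21.3 to 79.1 CPM in AI to 58.4 to 139 CPM in IVP-Normal. Antigen presentation genes, which B cells share with monocytes, were in part higher: 3 of the 14 MHC class II genes tested were higher and 0 lower (median 0.26), namely *CD74* (0.22 ± 0.10), *BOLA-DMA* (0.20 ± 0.08) and *BOLA-DOA* (0.28 ± 0.12). That count was 2 without heifer 519, 0 without heifers 628 and 688 and also 0 without heifer 560 or heifer 628 alone. The share of all genes that was higher moved from 4.98% to 2.57%, 5.39%, 7.2% and 5.35% in these sets.

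Of the 21 genes tested from the unfolded protein response, the programme that raises folding capacity when the endoplasmic reticulum is loaded, 9 were lower at the unadjusted threshold and 0 higher, where 4.93% of all genes were lower. The median was -0.24 and 20 of the 21 differences were below 0. *CRELD2*, a redox chaperone of the endoplasmic reticulum, had 22.2, 29.8 and 40.2 CPM as its lowest, median and highest values in AI and 18.7, 21.7 and 23.2 CPM in IVP-Normal (-0.54 ± 0.14). All 6 IVP-Normal heifers were below the AI median and 4 below the AI range. *XBP1*, the factor that drives the secretory programme of plasma cells, had 76.6 to 118.4 CPM in AI and 58.3 to 83.9 CPM in IVP-Normal (-0.36 ± 0.11), and *ERN1*, the sensor kinase that splices its RNA, differed by -0.47 ± 0.17. *SDF2L1* and *MANF*, small proteins induced by folding stress, differed by -0.57 ± 0.16 and -0.45 ± 0.17. *HERPUD1*, which helps remove misfolded proteins, had 99.5 to 136 CPM against 79.0 to 100.7 CPM (-0.29 ± 0.08). The chaperones *HSPA5* (BiP) and *HYOU1* and the co-chaperone *DNAJB9* differed by -0.21 ± 0.09, -0.26 ± 0.11 and -0.33 ± 0.14. Of the arm of the response that lowers translation, *ATF4* (0.07 ± 0.10) and *EIF2AK3* (-0.04 ± 0.07) did not pass. *DDIT3* (-0.15), *ASNS* (-0.24) and *TRIB3* (-0.27), genes of the same arm, did not pass either but lay further below 0.

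As each heifer was left out, between 6 and 10 members of the unfolded protein response list were lower and 0 were higher. Without heifer 519 the count was 6 with a median of -0.25, where 2.93% of all genes were lower. With heifers 628 and 688 both left out it was also 6, with a median of -0.22, where 4.56% of all genes were lower. Heifer 519, the highest for B cell markers, was not the lowest for *CRELD2* (21.2 CPM) but was for *XBP1*. A further list of 40 genes for entry into and export from the endoplasmic reticulum, also drawn up after the leading genes had been seen, had 39 members tested, of which 16 were lower and 1 was higher (median -0.14). Over all genes 4.93% were lower and 4.98% higher. The list had 15 lower and 0 higher without heifer 519, where 2.93% and 2.57% of all genes were. Its members include the translocon subunits *SEC61A1* (-0.24 ± 0.10) and *SEC61B* (-0.22 ± 0.10), the signal peptidase subunit *SEC11C* (-0.49 ± 0.14) and the retrieval receptor *KDELR1* (-0.23 ± 0.09). The 1 that was higher was *SEC31A*, a coat protein of export vesicles (0.11 ± 0.05). *TENT5C*, a poly(A) polymerase that stabilises immunoglobulin mRNA, differed by -0.81 ± 0.22.

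**Figure D4:**
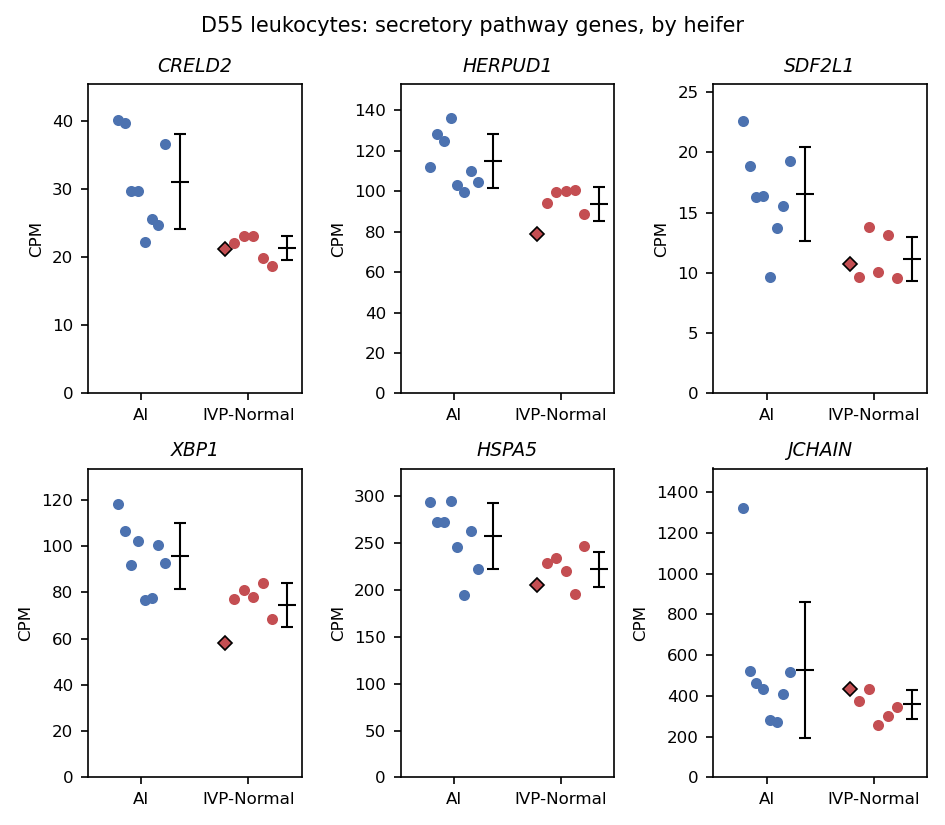
Level (CPM, y axis from 0) of 5 unfolded protein response genes and of *JCHAIN* in each heifer on D55, with heifer 519 as the diamond and the mean with its SD beside each group. In all 6 panels every IVP-Normal heifer lies below the AI median, and the highest AI point of *JCHAIN*, at 1321 CPM, is heifer 533.

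Plasma cell genes were lower in the median but not in most tests. Of 9 tested, *XBP1* and *MZB1*, a chaperone of immunoglobulin assembly, were lower and 0 were higher, with a median of -0.36 (also 2 and 0, median -0.30, without heifer 519). Over all genes 4.93% were lower, and 2.93% without heifer 519. *MZB1* had 14.02 to 82.5 CPM in AI and 12.5 to 30.1 CPM in IVP-Normal (-0.81 ± 0.36), and *JCHAIN*, which joins IgM and IgA, had 274 to 1321 CPM against 256 to 435 CPM (-0.56 ± 0.30, not past the threshold). Both were highest in AI heifer 533, and without it they differed by -0.46 and -0.21 and neither passed. *BHLHA15*, another factor of secretory cells, had 6.38 to 35.6 CPM in AI and 4.89 to 11.7 CPM in IVP-Normal (-0.98 ± 0.35). *TNFRSF17*, the survival receptor of plasma cells, was near 2 CPM in both groups (-0.63 ± 0.38), and *IRF4* was 0.03 ± 0.14.

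The constant regions of antigen receptors gave few differences, and no test compared them with one another. Of the 14 constant-region genes of antigen receptors tested, a set taken from RefSeq's classes after the values had been seen, 1 was higher and 1 lower. Over all genes 4.98% were higher and 4.93% lower. Without heifer 519 the counts were 0 and 1, where 2.57% of all genes were higher and 2.93% lower. *IGCGAMMA* had a median of 470.7 CPM in AI (226 to 1594) and 270.2 CPM in IVP-Normal (lowest 171, with overlap of the groups), a difference of -0.94 ± 0.40, and *IGHG1* a median of 961.4 against 690.5 CPM (-0.52 ± 0.25, not past the threshold). *IGHM*, the heavy chain of IgM, was 0.25 ± 0.56, with 82.2 to 484.5 CPM in AI and 120.8 to 260 CPM in 5 IVP-Normal heifers but 1132 CPM in heifer 519. These genes have near-identical copies and their counts are uncertain.

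Of the 26 T cell markers, all tested, 8 were lower and 0 higher at the unadjusted threshold, where 4.93% of all genes were lower, and the median was -0.28. *CD8A* had 73.5 to 115.8 CPM in AI and 40.9 to 89.7 CPM in IVP-Normal (-0.53 ± 0.16), *CD8B* differed by -0.41 ± 0.15, and *THEMIS*, needed for T cell selection, by -0.58 ± 0.17. *LAT* and *LCK*, which carry the signal of the T cell receptor, differed by -0.48 ± 0.18 and -0.37 ± 0.15. *CD3E* (-0.36 ± 0.19) and *CD4* (-0.25 ± 0.20) did not pass. The count was 4 without heifer 633, 5 without heifer 519 or AI heifer 647, and 13 without heifer 560. The share of all genes that was lower moved as well, to 3.64% without heifer 633, 2.93% without heifer 519, 3.28% without heifer 647 and 6.30% without heifer 560. With heifers 628 and 688 both left out the count was 4, where 4.56% of all genes were lower. Heifer 519 had the lowest summed level of the list, 2409 CPM, against 3730 to 6167 CPM in AI.

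Of 23 natural killer and cytotoxic genes tested, 6 were lower and 0 higher (median -0.37), where 4.93% of all genes were lower. They included *NKG7*, a granule protein, at 56.0 to 87.5 CPM in AI and 32.8 to 82.1 CPM in IVP-Normal (-0.48 ± 0.18), *KLRK1* (the NKG2D receptor, -0.44 ± 0.17) and *CD160* (-0.57 ± 0.18), while *NCR1* (-0.26 ± 0.27) and *PRF1* (-0.18 ± 0.18) did not pass. The count was 2 without heifer 519 and also 2 without heifer 688, where 2.93% and 4.25% of all genes were lower. With heifers 628 and 688 both left out it was 6, where 4.56% of all genes were lower. Of 14 gamma-delta T cell genes tested, an abundant class in cattle blood, 1 was lower (*ITGB7*, an integrin chain of gut homing, -0.39 ± 0.14) and 0 higher.

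Of 21 monocyte markers tested, 4 were lower and 0 higher (4.93% of all genes were lower), with a median of -0.48. Without heifer 519 the count was 3 and the median -0.33, where 2.93% of all genes were lower. With heifers 628 and 688 both left out the count was 5 and the median -0.54, where 4.56% of all genes were lower. *CCR2*, the chemokine receptor that brings monocytes out of the marrow, had 53.6 to 118.9 CPM in AI and 35.9 to 67.4 CPM in IVP-Normal (-0.64 ± 0.19). *CLEC7A*, the receptor for fungal glucans, had 1.605 to 10.1 CPM against 0.995 to 2.59 CPM (-1.20 ± 0.36), and *MRC1* (-0.81 ± 0.27) and *CD163* (-0.79 ± 0.33) mark macrophage-like cells. *CD14* (-0.53 ± 0.28) and *CSF1R* (-0.50 ± 0.30) did not pass. As each heifer was left out the count was between 3 and 9, and it was 9 without AI heifer 648 and 7 without AI heifer 533, where 5.50% and 5.26% of all genes were lower. The median was -0.32 without AI heifer 546. Of 13 neutrophil markers tested, *S100A8* was lower (55.5 to 142 against 38.2 to 98.1 CPM, -0.68 ± 0.24), while *CXCR2* was 0.37 ± 0.57 and turned to -0.38 without heifer 669. Of 32 lysosomal genes tested, a list drawn up after values were seen, 5 were lower and 0 higher (median -0.19), and these counts were also 5 and 0 without heifer 519. Because levels are shares of each library, a higher share of one cell type lowers the shares of the others, and the part of this in the lower T cell, cytotoxic and monocyte levels was not tested.

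**Figure D5:**
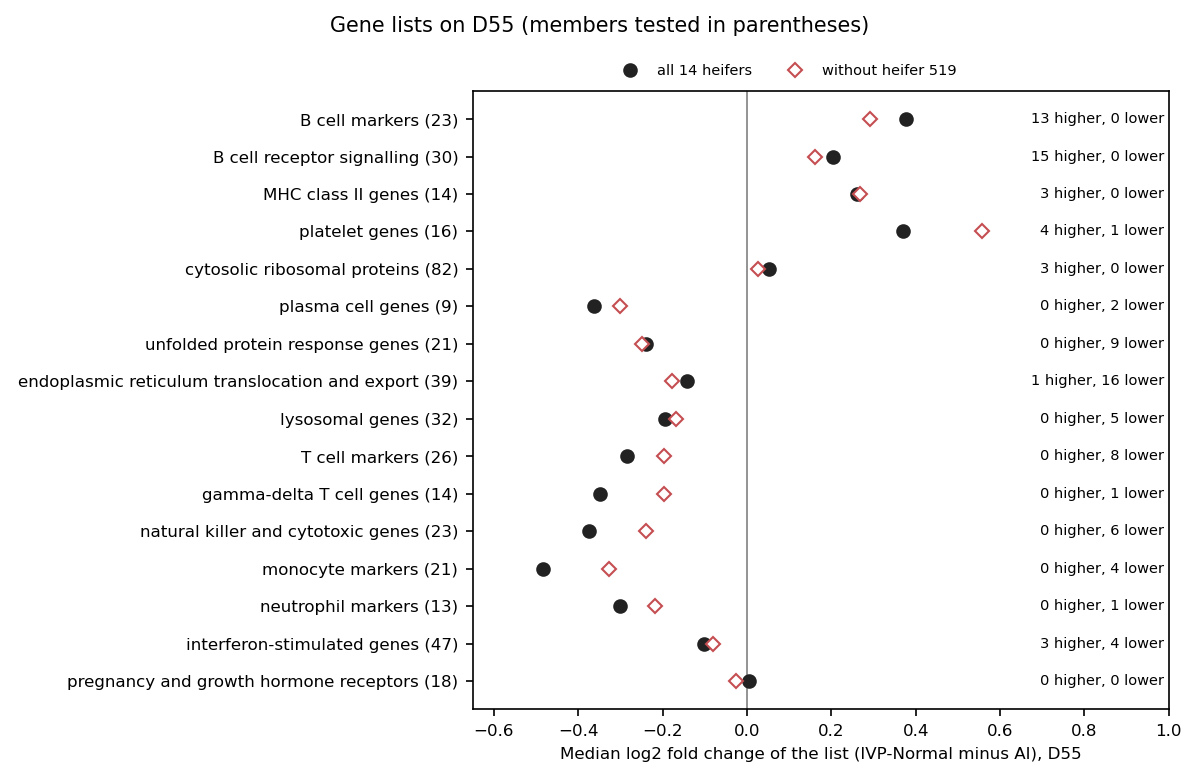
Median log2 fold change (IVP-Normal minus AI, x axis) of the members of 16 gene lists on D55, for all 14 heifers (filled circles) and without heifer 519 (open diamonds). The number of members tested is in parentheses and the counts at the unadjusted threshold stand at the right. B cell lists lie to the right of 0, and the plasma cell, unfolded protein response, T cell, cytotoxic and monocyte lists lie to the left with and without heifer 519. The lists of B cell receptor signalling, endoplasmic reticulum translocation and export, and lysosomal genes were drawn up after values had been seen and are a description only.

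The platelet counts depended on which dams were included. Of 16 tested platelet genes, 4 were higher and 1 lower (median 0.37), where 4.98% of all genes were higher and 4.93% lower. Those that were higher included *GP5* (1.31 ± 0.49) and *GP9* (1.06 ± 0.45), chains of the von Willebrand factor receptor, and *SELP*, the selectin of platelet granules (0.92 ± 0.40). The 1 that was lower was *F13A1* (-0.60 ± 0.25), which monocytes also make. *GP5* was sparse, at no more than 1.84 CPM in AI. The summed level of the list had a lower median in IVP-Normal, 1718 CPM (863.7 to 3310), against 1980 CPM in AI (854.8 to 2540). *PF4* was at 602 CPM in heifer 688 and 637 CPM in heifer 628, above all AI heifers (81.5 to 382 CPM), and at 489 CPM in heifer 560, but at 85.0 CPM in heifer 519. Without heifers 628 and 688 the counts were 0 higher and 2 lower and the median was -0.19 (5.39% and 4.56% over all genes). Without heifer 519 they were 6 and 0 and the median was 0.56 (2.57% and 2.93% over all genes). As single heifers were left out, between 1 and 6 were higher and the median lay between 0.12 and 0.56. The red cell gene *HBB* was likewise highest in these 2 dams, at 230 and 176 CPM against 25.3 to 162 CPM in AI, and its difference turned from 0.29 to -0.69 without them. Whether the number of fetuses has a part in this was not tested.

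Genes of pregnancy recognition and of hormone sensing are set beside the shares over all genes, 4.98% higher and 4.93% lower. Of 47 interferon-stimulated genes tested, 3 were higher and 4 lower, with a median of -0.10, and 12 differences were above 0 and 35 below. *MX1*, an antiviral GTPase, had 256 to 431 CPM in AI and 241 to 524 CPM in IVP-Normal (0.40 ± 0.15), while *OASL* (-0.54 ± 0.24) and *ZBP1* (-0.37 ± 0.17) were lower. Without heifer 519 the counts were 0 and 0, where 2.57% of all genes were higher and 2.93% lower. Of 18 genes tested from the list of receptors for pregnancy and growth hormones, 0 passed in either direction with edgeR's quasi-likelihood test. That list also holds the interferon receptor genes *IFNAR1* and *IFNAR2* and the transcription factors *STAT5A* and *STAT5B*. Its members *PGR*, *GHR*, *LHCGR*, *OXTR* and *LEPR* were not tested. Of 33 trophoblast products listed, 3 were tested and 0 passed. *PAG1* was 1 of the 3, and RefSeq gives the placental glycoprotein of that name another symbol, so its 388 to 692 CPM in AI are those of another gene. Of 21 imprinted genes tested, the class whose regulation is altered in large offspring syndrome, 1 was lower and 0 higher: *SLC22A18*, with 2.53 to 5.71 CPM in AI and 2.16 to 3.80 CPM in IVP-Normal (-0.57 ± 0.21).

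Among regulators of chromatin and signalling, single genes passed, and the shares over all genes were 4.98% higher and 4.93% lower (2.57% and 2.93% without heifer 519). Of 23 genes of DNA methylation and demethylation, 2 were higher and 2 lower. *DNMT3B*, a de novo methyltransferase, had 48.5 to 81.0 CPM in AI and 63.2 to 131 CPM in IVP-Normal (0.57 ± 0.18). Of 50 histone lysine methyltransferases and demethylases 7 were higher and 1 lower (median 0.02), with *KMT2E* at 0.21 ± 0.08, and without heifer 519 the counts were 2 and 1. Of 23 NF-kappaB subunits and inhibitors 4 were higher and 2 lower (2 and 0 without heifer 519), among them *NFKB2* (0.24 ± 0.08) and its activating kinase *MAP3K14* (0.18 ± 0.06), which act in B cell survival. *TLR9*, the receptor for bacterial DNA that B cells carry, was the 1 of 36 Toll-like receptor and inflammasome genes to pass (0.40 ± 0.16), and without heifer 519 the list had 0 higher and 1 lower. The immediate early gene *IER3* had 8.85 to 15.6 CPM in AI and 4.63 to 9.28 CPM in IVP-Normal (-0.67 ± 0.17), and of 33 such genes 2 were lower and 0 higher. *CD99*, an adhesion protein of leukocytes, went from 258 to 451 CPM in AI to 176 to 309 CPM in IVP-Normal (-0.52 ± 0.14), and of 27 adhesion genes 3 were lower and 1 higher. *CCL4*, a chemokine of T and natural killer cells, differed by -0.60 ± 0.18, and 3 of 45 cytokine and interleukin receptor genes were lower and 2 higher. Of 82 ribosomal protein genes 3 were higher and 0 lower (median 0.05; 0 and 0 without heifer 519 in edgeR's quasi-likelihood test), of 79 nuclear genes of the respiratory chain 1 and 0, and of 41 cell cycle genes 0 and 2 (median -0.11).

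The calcium channel gene *CACNA1B* was high in single dams of both groups. It was at 88.6 CPM in heifer 688 and 55.5 CPM in heifer 628, which each carried 2 fetuses, but also at 83.5 and 39.3 CPM in the AI heifers 648 and 590, and between 0.958 and 9.19 CPM in the other 10. Its difference was 0.50 ± 1.14, and -3.07 without heifers 628 and 688. *LOC100849069* was lower (-1.62 ± 0.66; 0.471 to 3.80 CPM in AI, 0.0462 to 1.86 CPM in IVP-Normal), with its highest IVP-Normal value in heifer 519, and *LOC783838* was 0.20 ± 0.26. *PCDH1* was under 0.5 CPM in every heifer and was not tested.

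The same dams were sampled again on D105, and AI was also compared with IVP-LOS on D55. The D105 libraries of AI belonged to the set named BACKUP and those of IVP-Normal to the set New, so group and library set cannot be told apart on that day, and the animals are the same as on D55. On D105 820 genes (5.31%) were higher and 657 (4.26%) lower in IVP-Normal at the unadjusted threshold. B cell markers had 11 members higher and 0 lower there (median 0.45), T cell markers 0 and 10 (median -0.29) and monocyte markers 0 and 5 (median -0.41). The unfolded protein response list had 0 higher and 3 lower (median -0.17), and *CRELD2* differed by -0.10 ± 0.15 where it had differed by -0.54 on D55. *COL27A1* differed by -1.51 ± 0.38 and *STAP1* by 0.36 ± 0.15 on D105.

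The IVP-LOS dams were compared with the same 8 AI libraries, so the 2 comparisons are not independent and their values are only set side by side. With 9 IVP-LOS heifers, 579 genes (3.8%) were higher and 600 (3.94%) lower than in AI on D55. B cell markers had a median of 0.08 with 0 passing in either direction, T cell markers a median of 0.04 with 0 passing, and monocyte markers -0.09 with 0 passing in edgeR's quasi-likelihood test. The unfolded protein response list had 2 lower and 0 higher, with a median of -0.07. *COL27A1* was -1.46 ± 0.37 against AI in these dams, at 0.204 to 1.91 CPM. Platelet genes had 4 higher and 0 lower (median 0.52). Whether IVP-Normal and IVP-LOS dams differed from each other in these lists was not tested.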

How the data were processed

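Buffy-coat leukocytes of 14 heifers on D55 (8 AI, 6 IVP-Normal) were analysed from the deposited table of counts on NCBI RefSeq genes. The authors trimmed paired-end reads of 100 bases, aligned them with HISAT2 2.1.0 to ARS-UCD1.2 and made these raw counts per gene with HTSeq in union mode, without normalization. HTSeq's summary lines stayed out of library sizes, which left 30675 genes. Their no-feature line gave the percentage of reads outside genes. Strand was not given in the sources used here, so antisense and overlapping genes may share reads.

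The 14 libraries alone entered a quasi-likelihood F-test in edgeR 4.0.16 (R 4.3.3), with TMM factors, 15350 genes kept by filterByExpr (minimum count 10), Benjamini-Hochberg adjustment over all of them and calls at an FDR of at most 0.05. The standard error is the absolute log2 fold change divided by the square root of F. CPM are scaled with the TMM factors and have no length correction, so levels are not compared between genes. Intervals from counting alone were not used, since the tests take the spread between heifers. Pairs of libraries of a group differed by at least 26.0 times the sampling variance (chi-square per degree of freedom), so each library counted as its own sample.

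The alternatives tried were DESeq2 1.42.0, the likelihood ratio and robust tests of edgeR, upper-quartile and RLE scaling, other filters, the Ensembl table, all 23 D55 heifers, a covariate for reads outside genes, and leaving out heifers. Genes were named by these rules: FDR of at most 0.05, the 10 smallest p in each direction and the 8 smallest among genes with a symbol other than LOC, the 5 largest differences without overlap and with a mean of at least 1 CPM, up to 4 genes of smallest p in each of 40 lists (1 of which, of 13 mitochondrially encoded genes, had 0 members in the table), defining markers, and 4 genes from earlier results. Other members named with values were chosen after their values were seen, as were 4 further lists. The comparison, members and lists were chosen with earlier results of these data known. RefSeq classes (ARS-UCD2.0) matched 24529 symbols and no coordinates were used. The fits were tested on simulated data before use. Of the table's 46 columns 0 were left unmapped. Some genes that these rules name are not reported here.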

Additional observations from a re-analysis of the deposited data

Results flagged for a closer look

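Dixon's test for a single sample far from the rest of its group marked 12 of 253 groups of values examined (named genes past the unadjusted threshold, 3 genes from earlier results, depth and the first principal component), and chance marks about 1 in 20. Heifer 519 was marked in 4 IVP-Normal groups: it was the lowest for *LOC515697* (44.1 CPM, nearest 52.9) and *IER3* (4.63 CPM, nearest 7.69), and the highest for *HSF2* (22.2 CPM, nearest 17.2) and *LOC100849069* (1.86 CPM, nearest 0.561). AI heifer 546 was the highest of its group for *GP5* (1.84 CPM, nearest 0.818) and *ZBP1* (130.5 CPM, nearest 94.9) and the lowest for *RPL39* (428 CPM, nearest 509). AI heifer 609 was the highest for the macrophage receptor *CD163* (103.99 CPM, nearest 54.7) and for the chemokine *CCL4* (14.95 CPM, nearest 10.8). AI heifer 533 was the highest for *MZB1*, the chaperone of immunoglobulin assembly (82.5 CPM, nearest 42.2). AI heifer 648 was the highest for *CACNA1B* (83.5 CPM, nearest 39.3), and IVP-Normal heifer 688 for *ALOX15*, a lipoxygenase of eosinophils (8.35 CPM, nearest 1.71). No heifer was marked for depth or for the first principal component.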

How the results depend on the processing

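No gene was called in the quasi-likelihood test under any scaling, filter, covariate or set of heifers tried, nor in the Ensembl table. DESeq2 called 13 genes, edgeR's likelihood ratio test 3, and both tests 3. The number at the unadjusted threshold ran from 851 to 2091 as single heifers were left out (851 without heifer 519, 999 without heifer 647) and stayed within 1.5 times in the other alternatives. List medians moved by more than the SD between heifers in 7 of 1032 recalculations. These were of trophoblast products (-0.0172 with a minimum count of 50, and -0.51 to -0.21 as heifers were left out), heat shock genes (-0.0778 to 0.11) and imprinted genes (-0.11 to -0.0119, and -0.12 with DESeq2 and without the filter on low counts). The sign of the median changed somewhere in 14 of 43 lists, among them platelet genes. Among 188 named genes the direction turned somewhere in 6: *CACNA1B* (-3.07 without heifers 628 and 688, and -0.49 to 1.57 as heifers were left out), *HBB* (-0.69, and -0.12 to 0.50), *LOC783838* (-0.055 without heifers 628 and 688), *CXCR2* (-0.0629 with the share of reads on no gene as covariate, and -0.38 to 0.67), *PAG1* (-0.0925 to 0.0627) and *IL5RA* (-0.26 to 0.0641). The cause was not tested. No paired analysis was possible because the AI and IVP-Normal heifers are different animals. With 8 and 6 heifers and a biological coefficient of variation of 0.256, no difference of the sizes given above was called after correction in the quasi-likelihood test.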

Other observations

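In the lists that the comparison has not described so far, most members at the unadjusted threshold were lower in IVP-Normal. Over all genes 4.98% were higher and 4.93% lower. Of 26 regulatory and tolerance genes 3 were lower and 0 higher: the costimulatory receptors *ICOS* (-0.43 ± 0.18) and *TNFRSF4* (-0.42 ± 0.16) and the galectin *LGALS9* (-0.42 ± 0.17). Of 23 tested genes of the prostaglandin and leukotriene pathway 3 were higher and 4 lower. The thromboxane receptor gene *TBXA2R* had 182.3 to 287.2 CPM in AI and 236.8 to 309.8 CPM in IVP-Normal (0.30 ± 0.10), whereas the lipoxygenases *ALOX5* (-1.45 ± 0.61) and *ALOX15* (-1.70 ± 0.74) and the prostaglandin-degrading enzyme *HPGD* (-1.49 ± 0.63) were low and lower. Of 22 glucocorticoid response genes 3 were lower, among them the metallothionein *MT2A* (-0.51 ± 0.18), and 0 higher. Of 29 chemoattractant and chemokine receptors 3 were lower, *CCR2*, *CCR9* (-0.38 ± 0.17) and *CXCR3* (-0.42 ± 0.20), and 1 was higher, *GPR183*. Of 9 eosinophil, basophil and mast cell genes 2 were lower, *ALOX15* and the IgE receptor chain *FCER1A* (-0.56 ± 0.22), and 0 higher. Without heifer 519 the regulatory list had 0 lower, the prostaglandin list 1 higher and 0 lower, and the glucocorticoid list 1 lower. The shares over all genes were then 2.57% higher and 2.93% lower.

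For metabolic and housekeeping lists the shares over all genes were also 4.98% higher and 4.93% lower (2.57% and 2.93% without heifer 519). Of 24 glycolysis enzymes 1 was higher (*PFKFB2*, 0.31 ± 0.11) and 3 lower, with the hexokinases *HK3* at -0.60 ± 0.22 and *HK2* at -0.42 ± 0.18. Of 27 tested genes of cholesterol synthesis and uptake 3 were higher, *ABCG1* (0.39 ± 0.16), *MVD* (0.26 ± 0.11) and *ACAT2* (0.20 ± 0.09), and 1 was lower, and without heifer 519 both counts were 0 in edgeR's quasi-likelihood test. Of 28 heat shock and chaperone genes 1 was higher (*HSF2*, 0.30 ± 0.10) and 2 lower, the endoplasmic reticulum chaperones *HSPA5* and *HSP90B1* (-0.36 ± 0.14). Of 19 MHC class I and peptide loading genes 2 were lower, *PDIA3* (-0.21 ± 0.08) and *TAPBPL* (-0.16 ± 0.07). Single members passed among 9 neutrophil granule genes (*CHI3L1*, -0.72 ± 0.30), 28 NADPH oxidase and antioxidant genes (*TXN*, -0.35 ± 0.11), 11 erythroid genes (*KLF1*, 0.69 ± 0.32), 14 cytokine signal suppressors (*PIAS4*, 0.24 ± 0.09) and 34 proteasome subunits (*PSMD13*, 0.12 ± 0.06). Of 33 splicing factors of the SR family 2 were lower, *PNISR* (-0.21 ± 0.10) and *LUC7L3* (-0.27 ± 0.13).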
